A study of Mus musculus with 2 samples.

Results

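The mucus that coats the colon is built from a small set of proteins released by goblet cells, and 7 of their genes (Muc2, Fcgbp, Clca1, Zg16, Tff3, Agr2 and Spink4) were followed through single-cell RNA profiles of the mouse colonic epithelium. The genes were taken by symbol, 1 row each, from the 31053 genes counted in both libraries. The study compared whole colonic epithelium from c-Kit-creERT2 mice, with no treatment, with GFP+ cells sorted from c-Kit-creERT2;Rosa26-mTG mice after 1 intraperitoneal injection of tamoxifen (1 mg per 20 g). Both groups carry the tamoxifen-inducible Cre recombinase named for c-Kit, the receptor encoded by Kit, and only the second carries the mTG reporter, which switches to GFP in cells with active Cre and in their descendants. GFP thus marks descent from cells in which Cre was active and not present Kit expression. The labels do not give the time between injection and collection, the number of mice, their age or their sex. Each group is 1 library, so no replicate error exists and no test between the groups was possible. All intervals below are 95% intervals for counting error alone.

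Muc2 encodes the gel-forming mucin that makes up the bulk of the colonic mucus. Fcgbp, Clca1 and Zg16 encode proteins secreted with it: Fcgbp is a mucus protein built of repeated von Willebrand domains, Clca1 is a metalloprotease that acts on the mucus layer, and Zg16 is a lectin that binds Gram-positive bacteria. Tff3 is a trefoil peptide involved in epithelial repair. Agr2 is a protein disulfide isomerase of the endoplasmic reticulum that is required for making Muc2, and Spink4 is a Kazal-type protease inhibitor found in goblet cells.

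In the GRCm38 annotation (GENCODE vM21) all 7 genes are protein-coding. Muc2 (ENSMUSG00000025515) lies at chr7:141690340-141754693 on the plus strand, Fcgbp (ENSMUSG00000047730) at chr7:28071236-28120862 on the plus strand, and Zg16 (ENSMUSG00000049350) at chr7:127050156-127087328 on the minus strand. Clca1 (ENSMUSG00000028255) lies at chr3:145003817-145032776 on the minus strand, Tff3 (ENSMUSG00000024029) at chr17:31125306-31129646 on the minus strand, Agr2 (ENSMUSG00000020581) at chr12:35992907-36004087 on the plus strand, and Spink4 (ENSMUSG00000028415) at chr4:40920052-40931395 on the plus strand. Zg16 overlaps the noncoding genes Gm44939 and Gm22747, both on the opposite strand. Clca1 belongs to a family of similar genes, so reads may have been divided among its members less surely than for the other genes.

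Promoter sequence was matched for 3 of the 7 genes in the RefSeq table for GRCm38.p6, and is shown because Muc2 and Agr2 on one side and Fcgbp on the other differed in how they varied among goblet cells (below). Each line gives the 250 bases before the RefSeq start of the gene, 5′ to 3′ on its own strand, with matched motifs in capitals. The windows are chr7:141690090-141690339 for Muc2, chr7:28070986-28071235 for Fcgbp and chr12:35992675-35992924 for Agr2, all on the plus strand. The RefSeq start of Agr2 lies 18 bases inside the gene as GENCODE gives it, so the last bases of its window are past the GENCODE start.
Muc2: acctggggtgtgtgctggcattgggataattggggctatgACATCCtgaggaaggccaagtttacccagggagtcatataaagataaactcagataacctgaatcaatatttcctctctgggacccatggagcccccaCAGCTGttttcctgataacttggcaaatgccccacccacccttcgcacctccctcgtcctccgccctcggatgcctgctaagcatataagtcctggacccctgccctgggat
Fcgbp: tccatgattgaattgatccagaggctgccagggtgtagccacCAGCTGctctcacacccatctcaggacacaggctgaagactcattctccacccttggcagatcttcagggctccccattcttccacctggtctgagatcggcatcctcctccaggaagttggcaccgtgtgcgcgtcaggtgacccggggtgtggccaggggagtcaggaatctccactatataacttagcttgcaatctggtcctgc
Agr2: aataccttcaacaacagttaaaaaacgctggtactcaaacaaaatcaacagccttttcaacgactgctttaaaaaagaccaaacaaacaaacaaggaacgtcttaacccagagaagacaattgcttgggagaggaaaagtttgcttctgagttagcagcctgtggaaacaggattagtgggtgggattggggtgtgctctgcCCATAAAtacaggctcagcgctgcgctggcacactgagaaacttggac

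The 4 motifs spelled out here were searched on both strands of these windows, and none overlapped another. The E-box CAGCTG, a form bound by Atoh1-type factors, stood at -112 to -107 in Muc2 and at -208 to -203 in Fcgbp, counted from the RefSeq start, and 13.0% of all 32851 promoters of this length held it. GGATGT, an ETS-type core of the kind bound by Spdef, was found in Muc2 at -210 to -205, where it reads ACATCC on the gene's strand, and 9.46% of promoters held it. TTTATGG, a Cdx-type motif, was found in Agr2 at -48 to -42, where it reads CCATAAA, against 2.43% of promoters. The forkhead-type motif TGTTTAC, held by 3.17% of promoters, was in none of the 3 windows. A match describes these letters only.

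The whole-epithelium library held 13967 barcodes and 164185392 unique molecular identifiers (UMIs, each a counted RNA molecule), and the GFP library 13575 barcodes and 150348319 UMIs. The 2 matrices were recorded under each other's sample and were assigned by the length of the barcode lists, so every direction below rests on that assignment. After barcodes with over 25% mitochondrial UMIs were removed, 7762 and 5767 cells were kept, with medians of 14160 and 15821 UMIs, and 38.2% and 57.5% of barcodes exceeded the limit. The libraries shared 60 barcodes. Xist was at 0.0652 CPM (UMIs of the gene per 1e6 UMIs) in the whole-epithelium library and 750 in the GFP library, and Ddx3y at 35.4 and 0, so sex, sorting, genotype and treatment cannot be told apart between them.

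Cells were clustered within each library without the 7 genes, and clusters were named from other markers, so that no class was defined by these 7 genes. Goblet-like cells comprised 4 clusters in each library, in which 15 to 17 of the 17 goblet markers were raised at least 2-fold over the median cluster. They numbered 1056 in the whole-epithelium library (13.6% of kept cells, exact binomial interval 12.8 to 14.4%) and 1229 in the GFP library (21.3%, 20.3 to 22.4%). The sort on GFP can set this share. A goblet-like cluster of the GFP library with 403 cells, called G3 below, was shallow, with a median of 2763 UMIs. These 403 cells are among the 1229, and the higher share of cells in the GFP library depends largely on counting them. By UMIs, goblet-like cells held 13.5% of those of kept cells in the whole-epithelium library and 25.3% in the GFP library.

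Goblet-like cells held 84.4% of all UMIs of the 7 genes in the kept cells of the whole-epithelium library and 81.8% in the GFP library. Muc2 was the most abundant of them in both. It averaged 282 UMIs per goblet-like cell in the whole-epithelium library, with a median of 91, and 387 in the GFP library, with a median of 226. Agr2 averaged 161 and 202 UMIs and Spink4 161 and 213, and their medians, 88 and 128 for Agr2 and 67 and 109 for Spink4, show that the typical goblet-like cell of both libraries carried all 3 genes.

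The other 4 genes were unevenly spread over goblet-like cells. Zg16 averaged 47.9 UMIs per goblet-like cell in the whole-epithelium library but had a median of 1, and in the GFP library it averaged 108 with a median of 5. Fcgbp averaged 16.5 and 72.5 with medians of 2 and 6, Clca1 9.45 and 91.9 with medians of 0 and 5, and Tff3 32.0 and 38.0 with a median of 3 in each. The 5% of goblet-like cells richest in a gene held from 52.01% (Tff3) to 77.5% (Clca1) of its UMIs in the whole-epithelium library. In the GFP library this ran from 45.6% (Fcgbp) to 77.5% (Zg16), with Clca1 at 52.5%. For Muc2 the same share of cells held 28.4% in the whole-epithelium library and 20.98% in the GFP library. The barcode of a typical goblet-like cell thus held few molecules of these 4 genes, and a minority held most of them. In the GFP library the median barcode of 1000 to 3000 UMIs, used below for free RNA, held 5 Zg16, 3 Clca1, 2 Tff3 and 1 Fcgbp UMIs. The goblet-like median there was thus at this level for Zg16 and not far above it for Clca1 and Tff3.

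**Figure D1:**
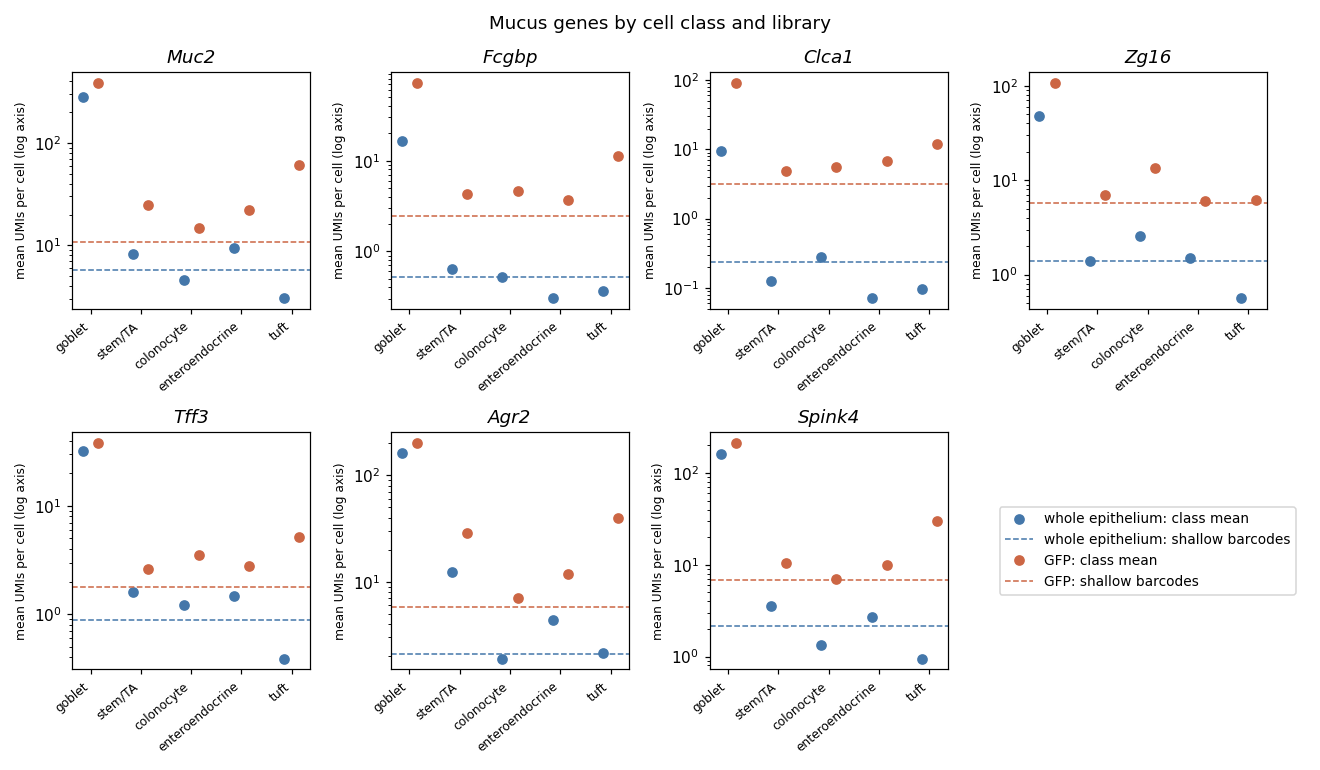
Mean UMIs per cell of each gene (log axis) in 5 classes of the whole-epithelium library (blue) and the GFP library (orange), with dashed lines at the mean over barcodes of 1000 to 3000 UMIs of the same library. Goblet-like cells stand highest for all 7 genes in both libraries (Muc2 282 and 387), and Agr2 in stem/TA-like cells (12.4 and 28.4) lies above its dashed lines.

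Transcripts of these genes were also found in cells that should not make them. Barcodes with only 1000 to 3000 UMIs, of which there were 3739 and 2901, were used to measure RNA free in the suspension. They held on average 5.81 Muc2 UMIs in the whole-epithelium library and 10.8 in the GFP library. Clca1 differed more between the libraries, at 0.233 and 3.15 UMIs per shallow barcode, and Fcgbp was at 0.526 and 2.46. Zg16 stood at 1.39 and 5.70, Tff3 at 0.877 and 1.79, Agr2 at 2.10 and 5.76, and Spink4 at 2.14 and 6.81. The 7 genes together gave 13.1 UMIs per shallow barcode in the whole-epithelium library and 36.5 in the GFP library. Of these shallow barcodes, 175 and 233 were themselves goblet-like. Without them the means were 3.92 and 10.1 for Muc2, 0.336 and 2.06 for Fcgbp and 1.43 and 6.76 for Spink4. The 7 genes together then gave 9.16 and 35.0 UMIs, so the libraries lay further apart.

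All 7 genes were at least 10-fold above the shallow-barcode level in goblet-like cells of both libraries, but so were 71.8% of all genes measured in the whole-epithelium library and 81.8% in the GFP library, since goblet-like cells were on average 9.11 and 10.2 times deeper than shallow barcodes. The count therefore says little about these genes.

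Goblet-like clusters differed in their make-up of the 7 genes, a pattern seen in these data and described without a test. In the whole-epithelium library, the largest goblet-like cluster (W1, 493 cells) was rich in Muc2, at 25752 CPM, with Agr2 at 11772 and Spink4 at 10818. It held little Fcgbp (597 CPM), Clca1 (268), Zg16 (846) and Tff3 (1006). Cluster W16 (187 cells, median 18345 UMIs against 18744 in W1) had less Muc2, at 7477 CPM, and more Zg16, at 6792, with Tff3 at 3849 and Fcgbp at 1889. Its medians of 2 Zg16 and 0 Clca1 UMIs show that even there a minority of cells held most of these transcripts.

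In the GFP library, cluster G8 (290 cells) had 30997 CPM of Muc2 with 524 of Fcgbp and 451 of Clca1, and G12 (242 cells) had 17207 CPM of Muc2 with 10807 of Fcgbp, 14688 of Clca1 and 20046 of Zg16. In G12 the medians were 194.5 Fcgbp and 222.5 Clca1 UMIs, so most of its cells carried both. Fcgbp, Clca1, Zg16 and Tff3 made up 0.882%, 0.760%, 1.03% and 0.564% of the 7 genes' UMIs in G8 and 11.8%, 16.1%, 21.9% and 6.72% in G12. G7 (294 cells, median 43328 UMIs) expressed the proliferation gene Mki67 at 214 CPM and had Clca1 between them, at 1647 CPM, with Muc2 below both, at 9957. Mki67 was not particular to G7, at 185 CPM in G3, 63.0 in W1 and 8.43 in W16. The shallow cluster G3 had medians of 13 Muc2 and 7 Agr2 UMIs, near the 9 and 6 of the median shallow barcode, but its mean was 56.7 Muc2 UMIs and its Muc2 level 16849 CPM, so some of its cells held far more. In the whole-epithelium library, W11 (302 cells, median 4933.5 UMIs) and W25 (74 cells, 38614.5) had Zg16 at 22.8% and 11.9% of the 7 genes' UMIs.

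**Figure D2:**
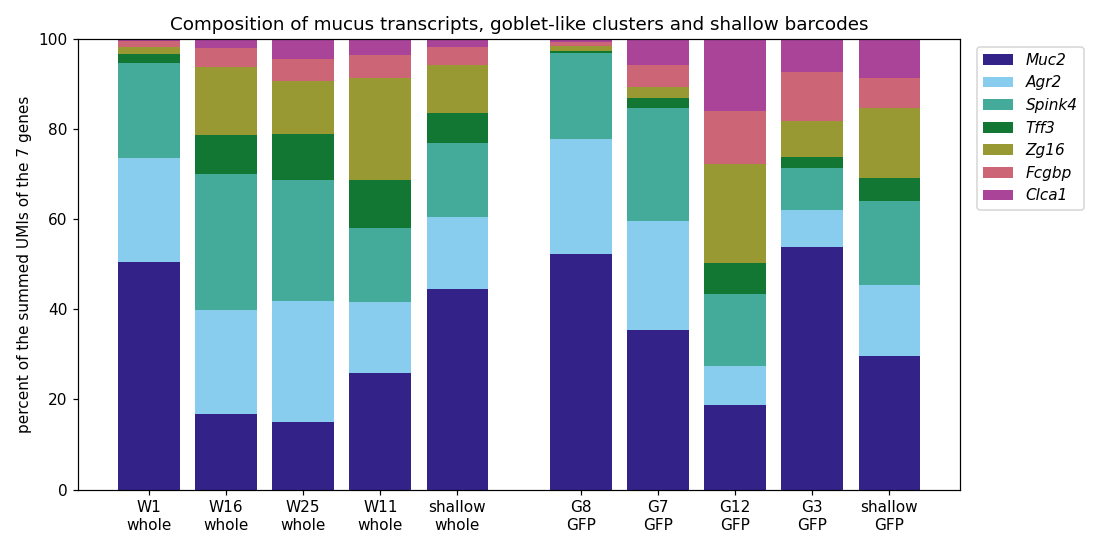
Share of each gene in the summed UMIs of the 7 genes (percent, stacked bars) in every goblet-like cluster and in barcodes of 1000 to 3000 UMIs of each library. Muc2 makes up 50.4% in W1 and 52.2% in G8 but 16.8% in W16 and 18.8% in G12, where Zg16 takes 15.2% and 21.9%.

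The share of Fcgbp, Clca1, Zg16 and Tff3 in each cell's UMIs of the 7 genes was then taken over goblet-like cells with at least 50 such UMIs, 969 in the whole-epithelium library and 996 in the GFP library. Its median was 3.58% and 9.19%. Under 10% lay 61.7% and 51.5% of these cells, and at 40% or more lay 14.2% and 21.7%. No bin of 4 percentage points between these limits was empty. In the GFP library the cut of 50 UMIs lay not far above the 36.5 UMIs of the 7 genes per shallow barcode. At 40% or more lay 35.9% of 170 such cells of the shallow cluster G3 and 29.1% of 244 of W11. In G12 it was 53.7% of 242, in W1 2.78% of 468 and in G8 0.345% of 290. The part of free RNA and depth in these shares was not tested.

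**Figure D3:**
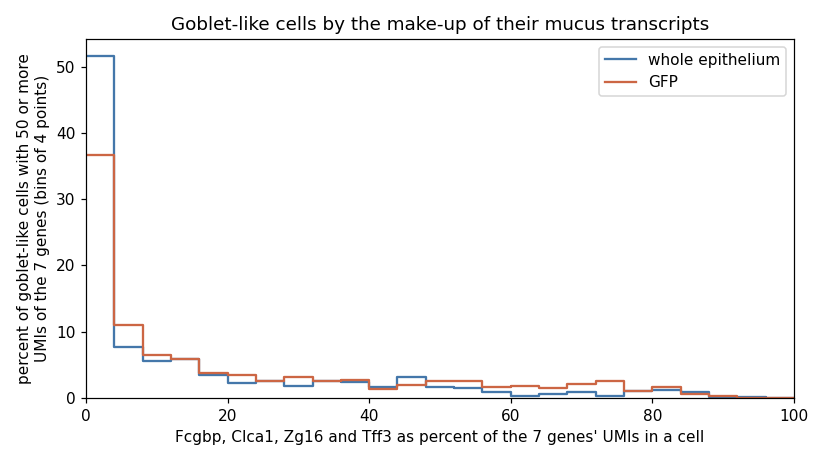
Distribution over goblet-like cells of the share of Fcgbp, Clca1, Zg16 and Tff3 in the UMIs of the 7 genes (horizontal axis, percent) in the whole-epithelium library (969 cells) and the GFP library (996 cells). Most cells lie at low shares, and a long tail reaches past 40% in 14.2% and 21.7% of cells. Cells of the shallow cluster G3 are included, and free RNA is not subtracted.

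After thinning each goblet-like cell to 5000 UMIs, which left 740 and 856 cells and dropped 316 and 373 shallower ones, levels correlated across cells of 1 library as follows (Pearson r of log2(UMIs + 1), given without a test since the cells share a library). Fcgbp and Clca1 followed each other most closely, at 0.70 in the whole-epithelium library and 0.86 in the GFP library. Zg16 correlated with Clca1 at 0.66 and 0.62 and with Tff3 at 0.57 and 0.66. Agr2 and Spink4 correlated at 0.52 and 0.45, and Muc2 with Agr2 more weakly, at 0.33 and 0.22. Muc2 and Tff3 ran against each other at -0.42 and -0.17, and Zg16 and Agr2 at -0.27 and -0.16. Not all pairs across these genes were negative, since in the GFP library Muc2 correlated with Fcgbp at 0.09, with Clca1 at 0.13 and with Zg16 at 0.14, and Spink4 with Fcgbp at 0.17.

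Across 43 clusters of at least 50 cells from both libraries, the genes most like each member in log2(CPM + 1) were found among 9353 candidates, from which the 7 genes themselves were left out. Muc2 was closest to Spdef (r = 0.97), a transcription factor of goblet cells, then Tpsg1 and Slc12a8, and Spink4 to Tpsg1 (0.97), Ramp1 and Spdef. Agr2 was closest to Bace2 (0.95), Kdelr3 and Tspan13. Fcgbp was closest to Fer1l6 (0.94), Mptx1 and Capn9, Zg16 to Capn9 (0.89), Mptx1 and Fer1l6, and Tff3 to Sval1 (0.91), Mptx1 and Rep15. Clca1 was closest to Ang4 (0.92), an antimicrobial angiogenin, then Fer1l6 and Mptx1. Some of the 7 genes were nearer to each other than to any candidate, with Fcgbp and Clca1 at 0.96, Fcgbp and Zg16 at 0.94 and Zg16 and Tff3 at 0.92. Zg16 was also nearer to Clca1 (0.91) than to any candidate, but Clca1 was nearer to Ang4. The clusters share 2 libraries, and Spdef, Tpsg1, Capn9 and Rep15 were among the markers that named goblet-like clusters. Levels were not centred by library, so a difference between the libraries enters r. Over all kept cells Clca1 and Ang4 were both higher in the GFP library, with log2 ratios of 3.89 and 6.84. The part of that difference in their r was not tested.

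Over all kept cells, all 7 genes were higher in the GFP library. Clca1 was at 85.7 CPM in the whole-epithelium library and 1267 in the GFP library (log2 ratio 3.89, interval 3.86 to 3.91) and Fcgbp at 159 and 1000 CPM (2.65, 2.63 to 2.67). Zg16 was at 482 and 1668 CPM (1.79), Muc2 at 2495 and 5207 (1.06), Spink4 at 1365 and 2812 (1.04), Agr2 at 1543 and 2891 (0.91) and Tff3 at 317 and 554 (0.81). At least 2-fold higher were 5 of 7, against 2.56% of 12873 genes with at least 100 UMIs, and none was 2-fold lower, against 6% of genes. Muc2 and Spink4 stood close to the 2-fold line. With each cell weighted equally, the count was 3. Goblet-like cells, the main source of these transcripts, made up more of the GFP library, and free RNA of the 7 genes was also higher there, and the part of either in these ratios was not tested.

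Within goblet-like cells the difference was narrower. Clca1 was at 538 CPM in the whole-epithelium library and 4119 in the GFP library (log2 ratio 2.94, interval 2.91 to 2.97), and Fcgbp at 939 and 3249 (1.79, 1.77 to 1.81). These were the 2 genes of 7 that were at least 2-fold higher, against 2.46% of 10779 genes, and 0 of 7 were 2-fold lower, against 2.82%. Zg16, at 2725 and 4844 CPM, had a log2 ratio of 0.83. Muc2 (16044 and 17337 CPM, 0.11), Spink4 (9191 and 9566, 0.06), Agr2 (9169 and 9037, -0.02) and Tff3 (1822 and 1705, -0.10) were nearly level. The median log2 ratio over all genes was 0.04.

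These ratios depended on single clusters. Without G12, the cluster rich in Fcgbp, Clca1 and Zg16, the log2 ratio of Clca1 was 1.26 and that of Fcgbp 0.38. Without it Zg16 and Tff3 were lower in the GFP library, at -1.81 and -1.82. Each goblet-like cluster was left out in turn, and G12 is named here because it had the most of these 4 genes per UMI in its library. It was left out of the GFP library alone, while W11, W16 and W25 stayed, so the direction of these shifts is fixed by that choice. Without W1, the Muc2-rich cluster of the whole-epithelium library, the ratio of Muc2 was 1.68. Subtracting the free-RNA level left Clca1 at 2.93 and Fcgbp at 1.79.

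**Figure D4:**
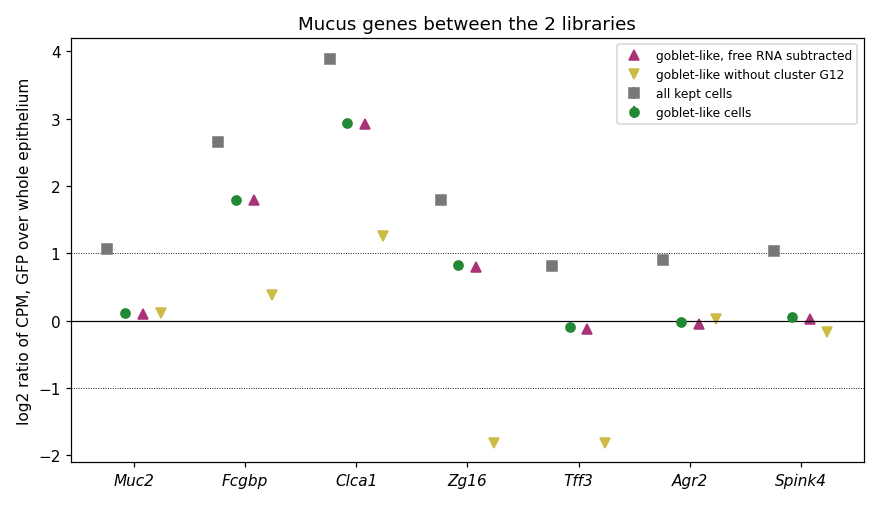
Log2 ratio of CPM, GFP library over whole-epithelium library, for the 7 genes over all kept cells (grey squares), goblet-like cells (green circles), goblet-like cells with free RNA subtracted (purple triangles) and goblet-like cells without cluster G12 (yellow triangles). Dotted lines mark 2-fold, and counting intervals are narrower than the symbols. Clca1 keeps a ratio above 1 in all 4 versions, and Zg16 and Tff3 are at -1.81 and -1.82 without G12, a cluster rich in these genes that is left out of the GFP library alone.

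Pairs of clusters, chosen after their values were seen, were set side by side. Between the 2 Muc2-rich clusters W1 and G8, Clca1 was 1.68-fold higher in G8 (268 and 451 CPM), Fcgbp was at 597 and 524, and Tff3 was at 1006 in W1 and 335 in G8. Clca1 averaged 5.28 UMIs per cell in W1 and 11.2 in G8, where shallow barcodes of the same libraries held 0.233 and 3.15. The part of free RNA in the difference of Clca1 between W1 and G8 was not tested. W16 and G12 were not alike, since the median share of Fcgbp, Clca1, Zg16 and Tff3 in a cell's UMIs of the 7 genes was 12.4% in W16 and 44.9% in G12, and the median cell held 0 and 222.5 Clca1 UMIs. Over all their cells, Clca1 was 17.0-fold higher in G12, Fcgbp 5.72-fold, Zg16 2.95-fold and Muc2 2.30-fold. Agr2 and Spink4 differed little there, at 10312 and 7960 CPM and at 13360 and 14616 CPM.

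Outside goblet-like cells, 6 of the 7 genes stayed close to the free-RNA level in the typical cell of the named classes. Muc2 in an enteroendocrine-like cluster was an exception (below). The median colonocyte-like cell held 3 Muc2 UMIs in the whole-epithelium library and 11 in the GFP library, where the median shallow barcode held 2 and 9. For Clca1 these medians were 0 and 3 against 0 and 3, and for Zg16 0 and 5 against 0 and 5. The 5% of colonocyte-like cells richest in Zg16 held 73.3% and 60.5% of the Zg16 UMIs of that class, and for Muc2 the same share of cells held 43.5% and 31.1%. T/NK-like cells, lymphocytes that do not make mucus, held a median of 2 Muc2 UMIs in the whole-epithelium library.

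Agr2 stood above the free-RNA level in stem/TA-like cells, the stem and transit-amplifying cells of the crypt. It averaged 12.4 UMIs in the whole-epithelium library and 28.4 in the GFP library, with medians of 5 and 20, where the median shallow barcode held 1 and 6. The 95th percentile of Agr2 in shallow barcodes that were not goblet-like was 5 and 11 UMIs. Above it lay 48.9% of stem/TA-like cells of the whole-epithelium library (exact binomial interval 46.4 to 51.5%) and 73.1% of those of the GFP library (70.2 to 75.9%), against 5.01% (4.08 to 6.08%) and 7.94% (6.65 to 9.39%) of colonocyte-like cells. For Muc2, 3.88% and 18.6% of stem/TA-like cells exceeded the same percentile, against 2.94% and 10.3% of colonocyte-like cells. Agr2 was not particular to stem/TA-like cells. In deeper clusters that were given no class name its median was 5 and 15 UMIs, with means of 9.55 and 26.2, and above the percentile lay 19.5% and 23.9% of enteroendocrine-like cells and 28.6% of the 42 tuft-like cells of the GFP library.

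Stem/TA-like and colonocyte-like clusters of like depth differed in the same way. In the GFP library the stem/TA-like cluster G11, with a median of 21419 UMIs, held a median of 30 Agr2 UMIs, and the colonocyte-like cluster G1, with 21252, held 5. In the whole-epithelium library the stem/TA-like cluster W3, at 22337 UMIs, held 4 and the colonocyte-like cluster W2, at 21110.5, held 1. Stem/TA-like clusters ranged from 3 to 23 Agr2 UMIs in the whole-epithelium library and from 12 to 33 in the GFP library.

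**Figure D5:**
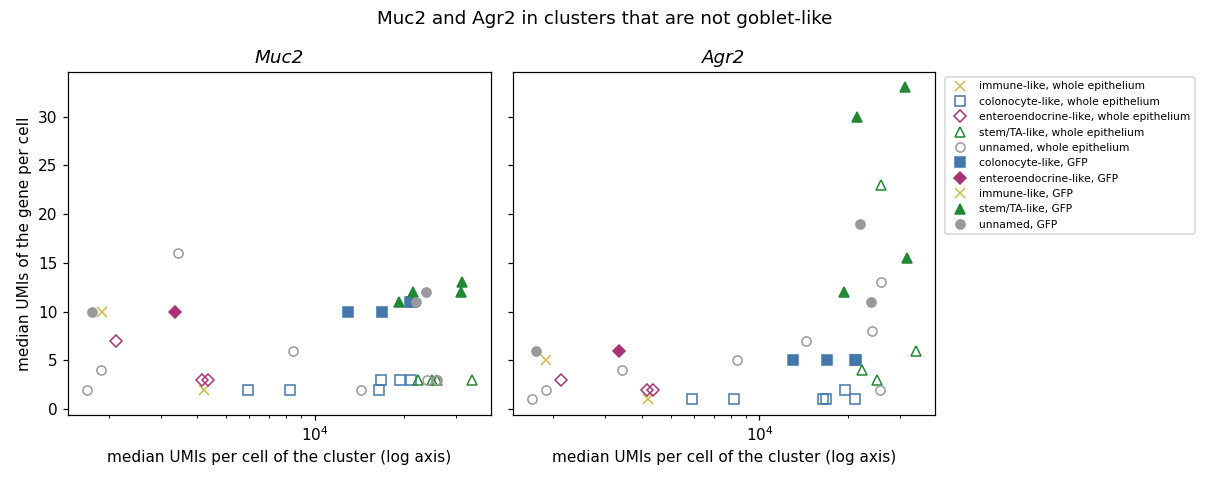
Median UMIs per cell of Muc2 (left) and Agr2 (right) against the median depth of each cluster that is not goblet-like (log axis), with open symbols for the whole-epithelium library and filled symbols for the GFP library, and crosses for immune-like clusters of either. Stem/TA-like clusters (triangles) reach 23 and 33 Agr2 UMIs, and at like depth in the GFP library one stands at 30 and a colonocyte-like cluster (square) at 5.

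Enteroendocrine-like cells, the hormone-producing cells, held medians of 4 and 10 Muc2 and of 2 and 6 Agr2 UMIs. In their whole-epithelium cluster W21 (98 cells, median 2125.5 UMIs) the median was 7 Muc2 UMIs, against 2 in the median shallow barcode. The 95th percentile of Muc2 in shallow barcodes that were not goblet-like was exceeded by 11.8% and 8.26% of enteroendocrine-like cells. For colonocyte-like cells this was 2.94% and 10.3%. Tuft-like cells, of which there were 41 and 42, held a mean of 60.9 Muc2 UMIs in the GFP library with a median of 11, so that a few cells set the mean.

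A list of 47 other mucus and goblet secretory genes, of which 46 were in the files and 40 had at least 100 UMIs in both libraries together, was compared in goblet-like cells. At least 2-fold higher in the GFP library were 8, against 2.46% of all genes, and 5 were lower, against 2.82%. The 40 had a median log2 ratio of -0.01, against 0.04 over all genes. Some of the 40, among them Atoh1, Best2, Spdef and Klk1, were also markers that named goblet-like clusters. Their levels in this class are therefore not independent of its naming. Ang4 had a log2 ratio of 6.11 (55.2 and 3805 CPM), Retnlb, a resistin-like antimicrobial protein, 4.39 (1366 and 28671), and Itln1, an intelectin lectin, 3.52 (7.33 and 84.1). Clca4b, Clca3a2 and Clca3b, relatives of Clca1, had ratios of 2.68, 2.27 and 1.87. The lower genes were Tgm3 (-1.81), a transglutaminase, Kit (-1.79), Best2 (-1.33), a bestrophin anion channel, Sval1 (-1.15) and Atoh1 (-1.06), the transcription factor that directs secretory fate. In both libraries Tgm3 and Clca4b were scarcer in goblet-like cells than over all kept cells. Tgm3 was at 33.7 and 9.63 CPM against 173 and 63.2, and Clca4b at 4.10 and 26.3 against 29.3 and 159. Ang4, Retnlb and Itln1 were higher in goblet-like cells than over all kept cells. The part of RNA from other cells in these ratios was not tested.

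Kit itself, the gene whose name the Cre carries, was detected in thinned goblet-like cells of both libraries. The 230 cells with a Kit UMI in the whole-epithelium library averaged 107 Muc2 UMIs per 5000, and the 510 without averaged 73.3. In the GFP library, 113 cells with a Kit UMI averaged 164 and 743 without averaged 103. The medians of Muc2 were 67 with and 38 without Kit in the former and 108 and 71 in the latter. The means of Zg16 went the other way, at 6.97 with and 19.1 without Kit in the whole-epithelium library and at 14.9 and 31.6 in the GFP library. Those of Clca1 likewise were at 0.974 and 3.55 and at 14.6 and 25.2. Their medians did not differ, at 0 and 0 and at 1 and 1 for Zg16 and at 0 and 0 and at 2 and 2 for Clca1, so few cells set the differences in these means. A Kit UMI is a chance detection at this depth, so the cells without one include cells that express Kit.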

How the data were processed

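Raw UMI counts per gene and barcode were deposited by the authors for 1 library per group, made with 10x Genomics 3′ kits per the labels' protocols. They were produced with Cell Ranger on mm10, version 2.1.1 per the submitters' processing notes and 3.1.0 per the file headers. The annotation was not given in the sources used here. UMIs tag 3′ ends, so levels were not scaled to gene length. Cells needed at least 500 genes, 1000 UMIs and at most 25% mitochondrial UMIs. Doublets were not called, and the 5% of cells with most UMIs were left out as an alternative. Each library was clustered without the 7 genes (scanpy 1.11.5, leidenalg 0.10.2: 2000 variable genes, 30 principal components, 15 neighbours, resolution 1) and clusters were named from fixed markers, with the scoring rule settled after the clusters were seen. A name needed at least 3 markers raised 2-fold and a mean log2 fold of at least 0.5, or 1.5 for shallow clusters. UMIs were summed per class and given as CPM. Intervals for ratios are exact conditional binomial, computed with scipy 1.17.1. The formula for ratios and intervals was tried on simulated counts that held counting error alone. Genes named beyond the 7 were the listed genes past 2-fold, up to 6 a direction by size, and the 3 nearest by correlation. The members and lists were chosen with earlier results of these data known.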

Additional observations from a re-analysis of the deposited data

Results flagged for a closer look

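Barcodes over the mitochondrial limit, which were left out of the kept cells, also carried transcripts of the 7 genes. Over those with more than 3000 UMIs, the 7 genes summed to a mean of 16.09 UMIs per barcode in the whole-epithelium library (3108 barcodes, median 6) and 49.61 in the GFP library (6383 barcodes, median 34), against 13.1 and 36.5 in shallow barcodes, whose medians were 6 and 33. The shallow barcodes hold fewer UMIs in all, and 2118 of 3739 and 1425 of 2901 of them were over the same limit. Per UMI the 7 genes were lower in the barcodes over the limit, at 2352 and 8270 CPM, than in the shallow ones, at 6785 and 16614 CPM.

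Tff3 and Agr2 were nearly level between the libraries in goblet-like cells, with ratios just below 0, and higher in the GFP library in colonocyte-like, stem/TA-like and enteroendocrine-like cells. In goblet-like cells the log2 ratio of GFP over whole epithelium was -0.0955 for Tff3 and -0.0208 for Agr2, and in the other 3 classes it was 1.21, 0.66 and 0.90 for Tff3 and 1.57, 1.17 and 1.41 for Agr2. The sign in goblet-like cells was not stable, since over 22 alternatives the ratio was above 0 in 8 for Tff3 and in 12 for Agr2. The difference between classes was not tested. Free RNA of Tff3 and Agr2 was at 0.877 and 2.10 UMIs per shallow barcode in the whole-epithelium library and 1.79 and 5.76 in the GFP library. In stem/TA-like cells of the whole-epithelium and GFP libraries this level equalled 16.9% and 20.3% of the Agr2 UMIs. For Tff3 it equalled 54.4% and 69.2% there. In colonocyte-like cells it equalled 111% and 82.4% for Agr2 and 71.5% and 50.9% for Tff3. The part of free RNA in the ratios of these classes was not tested.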

How the results depend on the processing

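Over all kept cells, 5 genes were at least 2-fold higher in the GFP library, and 3 (Fcgbp, Clca1 and Zg16) with each cell weighted equally, with no mitochondrial limit, or without the 5% of cells with most UMIs. Over 8 alternatives this count ran from 3 to 7, the highest with a mitochondrial limit of 10%, and over 22 alternatives in goblet-like cells it ran from 1 to 3. In goblet-like cells the 2 higher genes became 1 (Clca1) without cluster G12, and the lower genes went from 0 to 2 (Zg16 and Tff3). Each goblet-like cluster was left out in turn, and G12 is the one of the GFP library with most Fcgbp, Clca1, Zg16 and Tff3 per UMI, so its removal alone, with W11, W16 and W25 kept, can only lower those ratios. No ratio that was past 2-fold in the main setting changed sign in the alternatives run. Over 22 alternatives for goblet-like cells, the log2 ratio ran from 1.26 to 3.57 for Clca1, from 0.38 to 2.40 for Fcgbp, from -1.81 to 1.67 for Zg16 and from -0.36 to 1.68 for Muc2. Over all kept cells the share of genes at least 2-fold higher was 10.4% with no minimum of UMIs and 1.31% with a minimum of 1000, and in goblet-like cells 9.77% and 1.3%. For goblet-like cells the share 2-fold lower was 13.5% and 1.56%. Leaving out single clusters or shallow goblet-like clusters, UMIs per cell, shallow barcodes without goblet-like ones, and a shallow-barcode median set to at least 1 UMI were chosen after seeing the data. With that median, 6 genes instead of 7 were 10-fold above the shallow-barcode level in the whole-epithelium library, and 7 in the GFP library. No paired analysis was possible because each group has 1 library. The intervals do not cover differences between mice, sorts and preparations.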
